A study of Homo sapiens with 3 samples.

Results

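The genes of the MAP kinase cascade were examined for exon skipping in BJ cells, an established fibroblast line from human foreskin. Members were all rows of the 2 deposited exon-skipping tables whose gene symbol begins with MAPK, MAP2K, MAP3K or MAP4K and a digit, or with MAPKAP. This gave 172 exons of 45 genes, out of 39434 exons of 11271 gene identifiers in all. The table of the library coded RS2 held 144 of these exons in 44 genes, and that of the library coded RS3 held 152 in 42 genes. The symbol rule also took in 6 genes that are not kinases of the cascade, which are described last.

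All 3 libraries came from BJ cells, 8 days after viral OCT4, SOX2, KLF4 and MYC (OSKM) had been switched on to reprogram them. One library was from cells given a non-targeting siRNA (genotype label WT), one from cells given siRNA against SMAD3, a transcription factor of TGF-beta signalling, and one from cells given siRNA against SFRS11, a splicing factor now named SRSF11. Each group had 1 library, all groups carried the reprogramming factors, and no fibroblasts without them were analysed here. RS2 and RS3 were each compared with 1 other library, called the comparator here. Which siRNA the codes RS2 and RS3 and the comparator stand for is stated by no label, so the codes are kept. For the check of the cell type, 10 of 11 fibroblast marker genes had listed exons in each table, against 3 of 10 markers of other cells in RS2 and 4 of 10 in RS3; this shows only which genes had exons listed, since expression was not measured.

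MAP kinases are relays. A MAP3K phosphorylates a MAP2K, the MAP2K phosphorylates a MAPK, and the MAPK phosphorylates transcription factors and further kinases such as the MAPKAPKs; MAP4Ks often act above the MAP3Ks. The ERK branch carries growth factor signals, while the JNK and p38 branches respond to stress, cytokines and TGF-beta. In fibroblasts these branches govern proliferation, matrix production and senescence. Many of the genes have alternative exons that change a kinase's substrate range, docking or partners.

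The measured quantity was the difference in inclusion level. The inclusion level is the share of transcripts across a region that keep the exon, and a positive difference means more inclusion than in the comparator. An exon was called when at least 1 of its rows had a deposited false discovery rate (FDR) below 0.05 together with a difference whose size was 0.1 or more. The deposited p-values compare 2 libraries and not 2 treatments, read depth is unknown, and both tables share the comparator. Every difference below comes from the authors' deposited tables.

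A selection of 5 exons is printed first, because their letters show what is kept or lost. They were chosen by their results, among matched coding exons. The row of smallest p-value had to have an FDR under 0.1 in RS2 or RS3, or be lower by at least 0.2 in both. No such size limit was set for exons listed higher, and the MAP3K9 exon entered by the size limit alone. Those of MAPKAPK5 and MAP3K6 were called in RS3. Those of MAP4K4, MAP3K7 and MAP3K9 were not called, and the MAP3K9 exon had an RS3 FDR of 0.921. Each printed exon was matched to the single GENCODE 29 exon of that gene and length, with spacing to the other listed exons as in the annotation. The 87-base exon of MAP4K4 (RS3 FDR 0.0114) is not printed, since GENCODE has 2 exons of that length there. The 77-base exon of MAP3K5 and the 63-base exon of MAP4K3, both listed higher, met neither limit of the selection. They had no such match either. The letters are those of the GENCODE transcript (GRCh38). Capitals mark the skipped exon, lower-case letters are the 12 bases of each neighbouring exon in that transcript, and all runs read 5′ to 3′ along the gene. The hg19 positions are those of the authors' deposited tables.
MAPKAPK5 exon of 90 bases, chr12:112308075-112308164, plus strand: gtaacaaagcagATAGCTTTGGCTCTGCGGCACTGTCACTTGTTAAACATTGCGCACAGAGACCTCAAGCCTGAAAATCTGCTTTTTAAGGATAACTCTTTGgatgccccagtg
MAP3K6 exon of 24 bases, chr1:27691152-27691175, minus strand: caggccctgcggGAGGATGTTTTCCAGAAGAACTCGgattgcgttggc
MAP4K4 exon of 192 bases, chr2:102487956-102488147, plus strand: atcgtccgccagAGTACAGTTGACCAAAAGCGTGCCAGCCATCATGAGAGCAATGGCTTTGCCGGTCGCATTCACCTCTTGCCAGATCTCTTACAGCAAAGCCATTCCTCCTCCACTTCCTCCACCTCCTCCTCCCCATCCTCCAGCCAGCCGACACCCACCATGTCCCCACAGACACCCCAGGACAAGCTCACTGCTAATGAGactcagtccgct
MAP3K7 exon of 81 bases, chr6:91254271-91254351, minus strand: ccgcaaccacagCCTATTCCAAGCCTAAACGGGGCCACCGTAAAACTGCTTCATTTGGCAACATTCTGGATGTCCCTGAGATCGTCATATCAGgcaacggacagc
MAP3K9 exon of 69 bases, chr14:71202678-71202746, minus strand: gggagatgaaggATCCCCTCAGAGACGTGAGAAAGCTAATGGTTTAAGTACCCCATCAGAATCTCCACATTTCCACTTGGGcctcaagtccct
By the rule for printing, each of the 5 had to be wholly coding in at least 1 transcript, so that trait is no result. All 5 lie wholly in coding sequence in every GENCODE coding transcript that holds them, and each has a length that is a multiple of 3. Other coding transcripts of each gene span the site without the exon: 1 for MAPKAPK5, 1 for MAP3K6, 11 for MAP4K4, 3 for MAP3K7 and 4 for MAP3K9. The MAPKAPK5 exons of 76, 98 and 109 bases are each absent from 1 such transcript too. Whether any of these transcripts skips the printed exon alone was not examined. The MAPKAPK5 exon holds the bases CACAGAGAC from its position 43, in the reading frame of both coding transcripts that contain it. These are codons of the catalytic loop that protein kinases share. Searched on both strands, the run CACAGAGAC was found in 1 of the 95 matched internal member exons that are fully coding in at least 1 transcript (1.05%), namely this one. The run was taken from this exon, so its hit here was fixed in advance. Other spellings of the same codons were not searched, so the count does not show how many member exons hold a catalytic loop. The match describes the annotated exon and was not tested for function.

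No exon of the cascade was called in RS2, and 2 were called in RS3. In RS3 the 90-base exon of MAPKAPK5, a kinase activated by p38 and by atypical MAP kinases, fell by 0.344 in inclusion, and the 24-base exon of MAP3K6, a stress-activated MAP3K also known as ASK2, rose by 0.119 (authors' deposited table). In RS2 the count was 0 of 144, against 0.08% of all listed exons. The RS3 count was 2 of 152 members (1.32%), against 1.13% of all listed exons, so the share of members is near the background. One member was higher, against 0.274% of all exons, and 1 lower, against 0.861%. By gene, 2 of 42 (4.76%) had a call in RS3, against 3.05% of all genes. In the authors' deposited tables, 6 member exons (4.17%) had an unadjusted p under 0.05 in RS2, against 5.3% of all, and 17 (11.2%) did in RS3, against 8.8%.

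**Figure D1:**
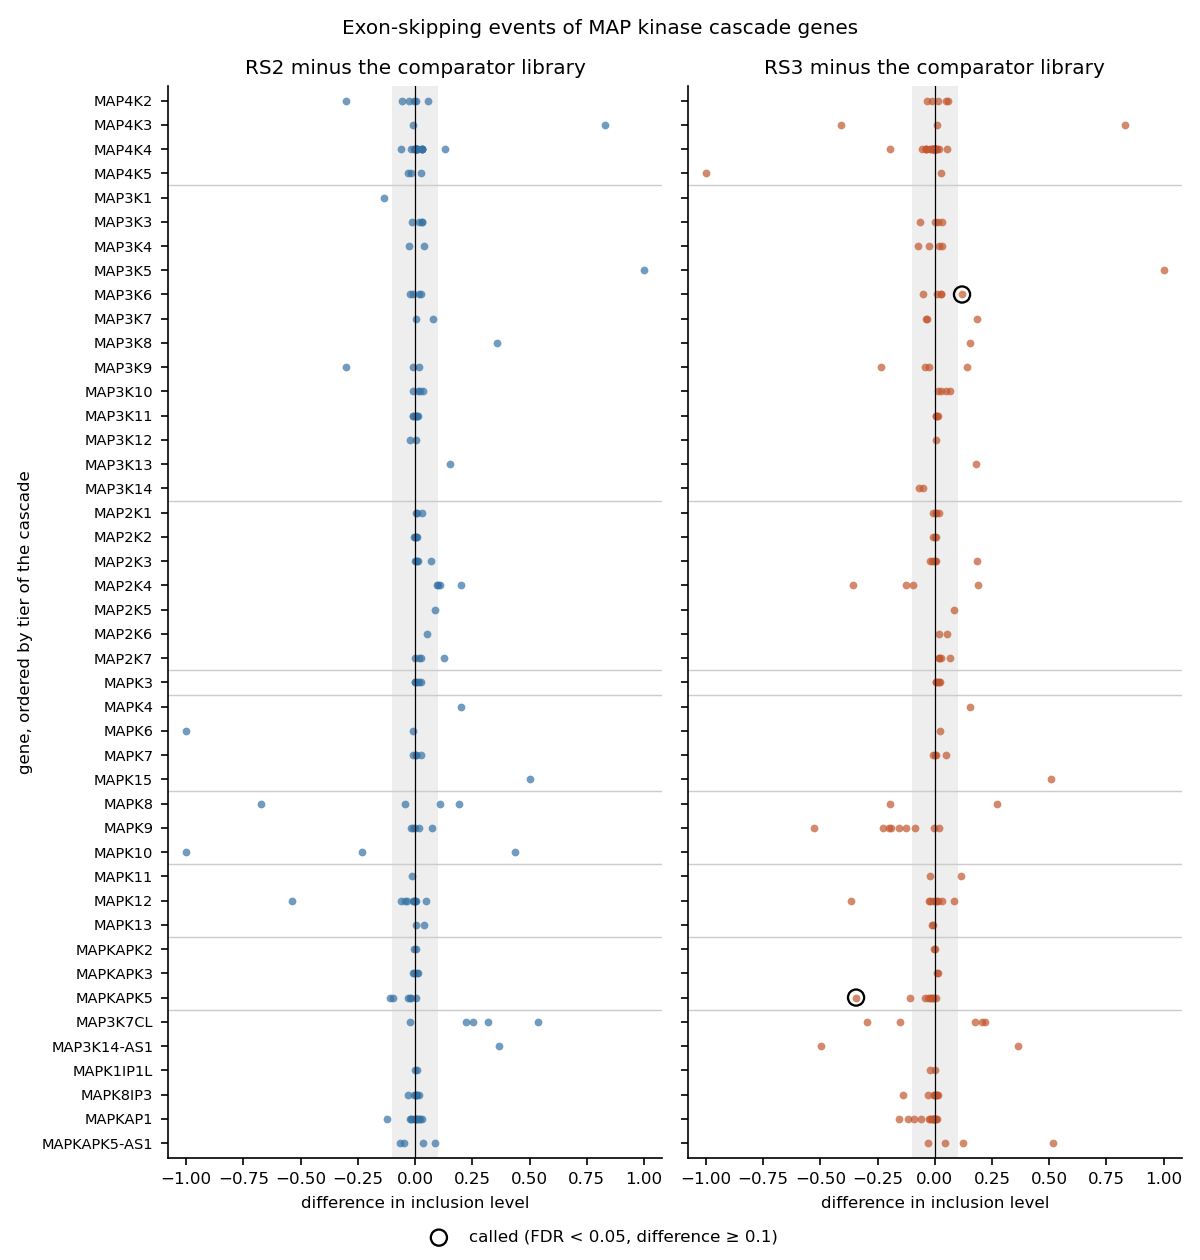
Difference in inclusion level (horizontal axis, no unit) for every listed row of 44 of the genes (vertical axis), in RS2 (left) and RS3 (right), each against the comparator library. Points are single rows, the grey band covers differences under 0.1, lines part the tiers of the cascade, and rings mark the 2 called exons, MAP3K6 at 0.119 and MAPKAPK5 at -0.344.

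Most members had small differences. The median difference was 0.004 in RS2 and 0.002 in RS3, against 0 and -0.001 over all exons of the authors' deposited tables. In the authors' deposited tables, 110 of 144 members (76.4%) in RS2 and 99 of 152 (65.1%) in RS3 lay within 0.05 of 0, against 68.6% and 65.8% of all exons. Differences of at least 0.1 were listed for 25 members in RS2 (17.4%, against 20.1% of all exons) and for 38 in RS3 (25%, against 22.3%). In RS2, 16 of these were higher (11.1%, against 10.1%) and 9 lower (6.25%, against 9.99%). In RS3, 17 were higher (11.2%, against 9.26%) and 21 lower (13.8%, against 13.1%).

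**Figure D2:**
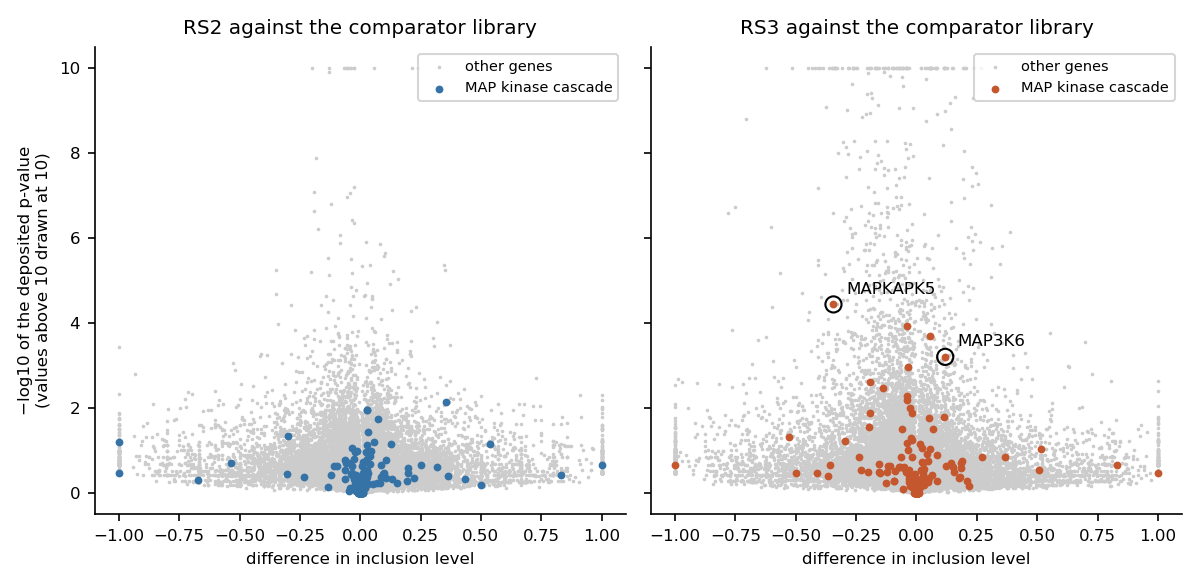
Difference in inclusion level (horizontal axis) against the −log10 of the deposited p-value (vertical axis), with values above 10 drawn at 10, for members (coloured) and all other genes (grey) in RS2 (left) and RS3 (right). The 2 called members are ringed, and the members with differences near 1 or -1 lie low on the vertical axis.

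MAPKAPK5 had the most firmly called exon of the cascade. Its 90-base exon had a single row in each of the authors' deposited tables, with a difference of -0.096 (p = 0.239, FDR 1) in RS2 and -0.344 (p = 3.65e-05, FDR 0.0043) in RS3. The RS3 difference minus the RS2 difference was -0.248, a gap that has no test. The gene had 9 listed exons, 6 of them in RS2. The 76-base exon, further upstream, was listed at -0.109 in both authors' deposited tables, with an FDR of 1. In the authors' deposited tables, the other 7 exons lay between -0.041 and 0.006 in RS3 and, for the 4 of them listed, between -0.033 and 0.005 in RS2, so the largest RS3 difference of the gene was at the exon that holds the catalytic loop codons. MAPKAPK2 and MAPKAPK3, the p38 targets that control mRNA stability, had 2 and 4 listed exons, all between -0.008 and 0.012 in the authors' deposited tables.

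**Figure D3:**
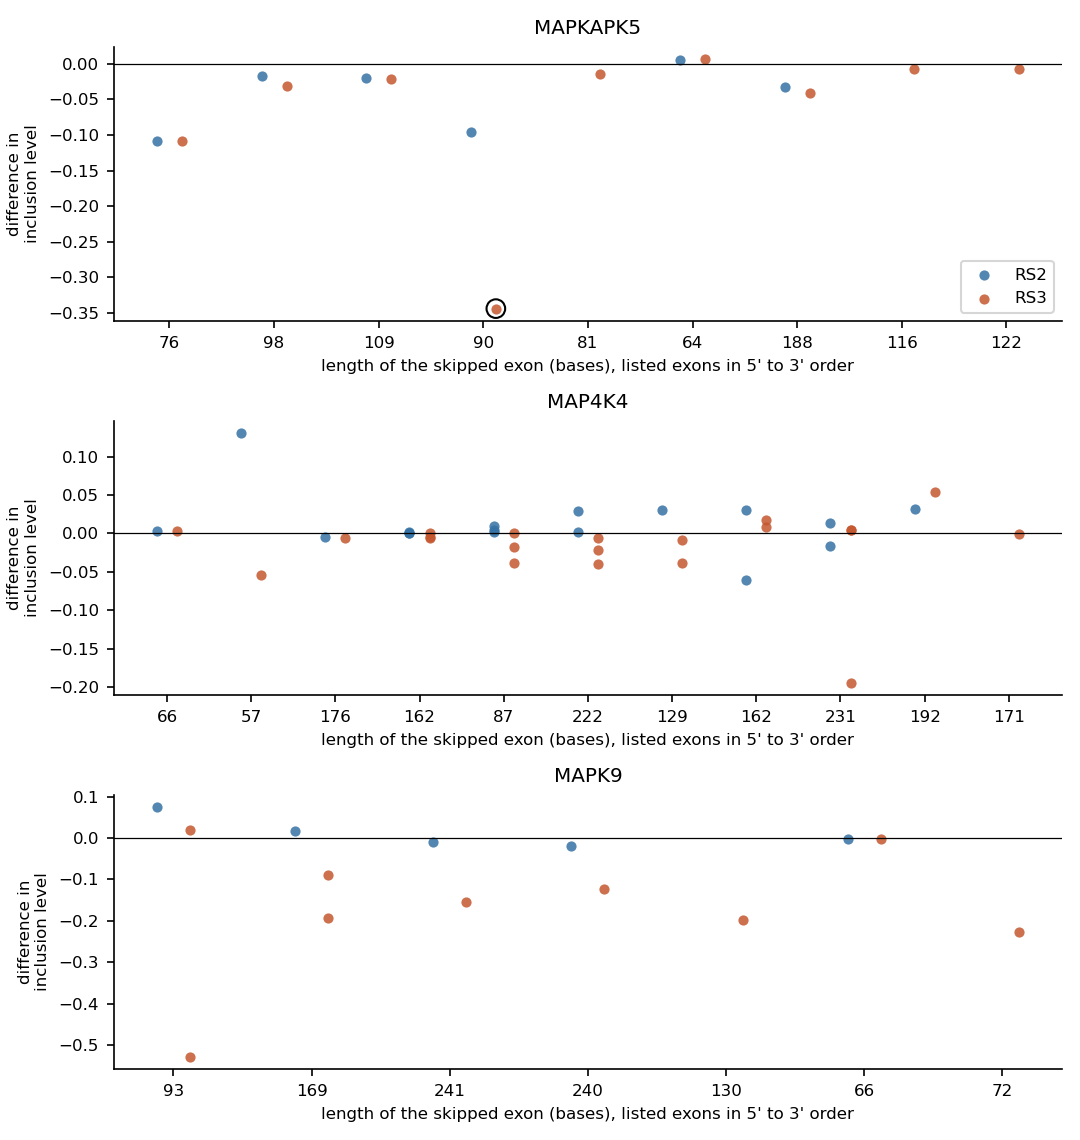
Difference in inclusion level (vertical axes) of each listed exon of MAPKAPK5, MAP4K4 and MAPK9, in 5′ to 3′ order with the exon length in bases (horizontal axes). Points are single deposited rows for RS2 (blue) and RS3 (orange), and the ring marks the called MAPKAPK5 exon at -0.344; RS3 points of MAPK9 lie mostly below 0.

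Among the 13 MAP3K genes, MAP3K6 alone had a call, and it was for a microexon. The authors' deposited tables list its 24-base exon with a difference of 0.019 (p = 0.713, FDR 1) in RS2 and 0.119 (p = 0.000627, FDR 0.0402) in RS3, a gap of 0.1 between the tables. The call lies close to both limits. With a minimum difference of 0.2 or an FDR under 0.01 it is lost, and MAPKAPK5 remains the single call. In the authors' deposited tables, the other 4 exons of MAP3K6 lay between -0.053 and 0.029 in RS3, and the 3 of them listed in RS2 between -0.021 and 0.026.

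MAP3K7 (TAK1) transmits TGF-beta and cytokine signals to JNK and p38. Its 81-base cassette exon, printed above, had in the authors' deposited tables a difference of 0.002 (FDR 1) in RS2 and -0.037 (p = 0.00109, FDR 0.0619) in RS3. The RS3 value missed both the FDR and the size limit. A 116-base exon of MAP3K7 was listed at 0.080 in RS2 and 0.186 in RS3, with an FDR of 1 in each, and a 66-base exon at -0.033 in RS3 alone in the authors' deposited tables.

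Several other MAP3K exons had large listed differences that were not called. In MAP3K8 (TPL2), which feeds the ERK branch, the 231-base exon was listed by the authors' deposited tables at 0.356 in RS2 (p = 0.00722, FDR 0.653) and 0.153 in RS3 (FDR 1). In the mixed-lineage kinase MAP3K9, the 69-base exon was listed at -0.300 in RS2 (p = 0.0461, FDR 1) and -0.237 in RS3 (FDR 0.921), and a 42-base exon at -0.007 and 0.142 in the authors' deposited tables. Both MAP3K9 exons have a length that is a multiple of 3, and the longer one was listed below 0 in both libraries. MAP3K13 had a 298-base exon at 0.153 in RS2 and 0.179 in RS3, both with an FDR of 1 in the authors' deposited tables. The single listed exon of MAP3K5 (ASK1), of 77 bases, stood at 1 in both authors' deposited tables with an FDR of 1, a complete switch on paper whose p-values were 0.225 and 0.337. MAP3K1 was listed in RS2 alone, at -0.134 (FDR 1) in the authors' deposited tables.

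The remaining MAP3K genes had small listed differences. MAP3K3 had 4 listed exons, MAP3K4 4, MAP3K10 4, MAP3K11 6, MAP3K12 2 and MAP3K14 2. Their differences lay between -0.074, in MAP3K4, and 0.068, in MAP3K10, in the authors' deposited tables. The MAP3K10 value (149-base exon, RS3) had an unadjusted p of 0.0314 and an FDR of 0.534 in the authors' deposited tables.

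MAP4K4, which acts upstream of JNK and in cell migration, had the most listed exons of the MAP4K genes and small differences with low FDR. Of its 11 exons, 10 have a length that is a multiple of 3. In RS3 the 87-base exon (chr2:102475458-102475544) had rows at -0.038 (p = 0.00012, FDR 0.0114), -0.017 (FDR 0.334) and 0 (FDR 1), and in RS2 it had rows at 0.004, 0.002 and 0.010, each with an FDR of 1 in the authors' deposited tables. The authors' deposited tables place the 192-base exon at 0.032 (p = 0.0375, FDR 1) in RS2 and 0.054 (p = 0.000204, FDR 0.0172) in RS3. Both passed the FDR limit in RS3 but not the size limit of 0.1; at a limit of 0.05 the 192-base exon would be the third call. With these, 4 members (2.63%) had an FDR under 0.05 at any size in RS3, against 1.91% of all exons in the authors' deposited tables.

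A pair of overlapping MAP4K4 exons had lowest-p rows on opposite sides of the comparator in the 2 libraries. The 222-base exon (chr2:102476105-102476326) had its lowest-p row at 0.029 (p = 0.0114, FDR 0.777) in RS2 and at -0.040 (p = 0.00538, FDR 0.194) in RS3, in the authors' deposited tables. Its shorter form of 129 bases, with the same end, was placed by the authors' deposited tables at 0.030 (p = 0.011, FDR 0.775) in RS2 and -0.038 (p = 0.00655, FDR 0.219) in RS3. These are overlapping exons and share reads. Their other rows were nearer 0. The 222-base exon also had rows at 0.002 in RS2 and at -0.021 and -0.006 in RS3, and the 129-base exon a row at -0.009 in RS3, in the authors' deposited tables. The next exon downstream, of 162 bases (chr2:102477287-102477448), had rows at 0.030 and -0.061 in RS2 and at 0.009 and 0.017 in RS3, each with an FDR of 1 in the authors' deposited tables. The 231-base exon had an RS3 row at -0.194 (p = 0.0131, FDR 0.33) beside rows at 0.005 and 0.004, and RS2 rows at 0.013 and -0.016 in the authors' deposited tables. A 57-base exon further upstream was at 0.130 in RS2 and -0.054 in RS3, each with an FDR of 1 in the authors' deposited tables. None of these was called, and the difference between the libraries was not tested.

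The other MAP4K genes had 13 listed exons and no call. MAP4K2 had 7 (from -0.302 to 0.057 in RS2 and from -0.036 to 0.057 in RS3), MAP4K3 3 and MAP4K5 3 in the authors' deposited tables. A 63-base exon of MAP4K3 stood at 0.830 in both authors' deposited tables, and an 85-base exon at -0.411 in RS3 alone. A 56-base exon of MAP4K5 stood at -1 in RS3 alone. The FDR of each was 1.

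The MAP2K genes had no call, and their listed differences ranged from small to wide. MAP2K1 and MAP2K2 (MEK1 and MEK2), which activate ERK, had 4 and 3 listed exons, all between -0.008 and 0.030 in the authors' deposited tables. For the p38 activators, MAP2K3 had 5 exons, of which 4 lay between -0.020 and 0.013; its 95-base exon had RS3 rows at -0.001 and 0.186 (FDR 1) in the authors' deposited tables. MAP2K6 had 2 exons between 0.019 and 0.054, and the ERK5 activator MAP2K5 had 1 exon at 0.085 in both authors' deposited tables. MAP2K7, an activator of JNK, had 4 exons, and the authors' deposited tables list its 48-base exon at 0.126 (p = 0.0692, FDR 1) in RS2 and 0.066 (FDR 1) in RS3.

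MAP2K4, the other JNK activator, had the widest range of this tier. Its 175-base exon had RS2 rows at 0.095 and 0.2 and RS3 rows at -0.127 and -0.357 in the authors' deposited tables, all with an FDR of 1. All rows of that exon were thus above 0 in RS2 and below 0 in RS3. The authors' deposited tables list its 103-base exon at 0.108 and 0.099 in RS2 and at 0.187 (FDR 0.972) and -0.093 (FDR 1) in RS3. Beyond an event number, the tables describe no feature that tells the rows of 1 exon apart, so these rows were not paired between the tables.

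MAPK9 (JNK2), one of the kinases that MAP2K4 and MAP2K7 activate, was listed lower in RS3 across most of the gene. The lowest-p rows of all 7 exons were below 0 in RS3, 6 of them by at least 0.1, and none was called. The 169-base exon had RS3 rows at -0.193 (p = 0.00241, FDR 0.111) and -0.088 (FDR 1), and 1 RS2 row at 0.016 (FDR 1) in the authors' deposited tables. The 93-base exon had RS3 rows at -0.528 (p = 0.0489, FDR 0.65) and 0.020 (FDR 1), and an RS2 row at 0.074 (p = 0.0179, FDR 0.892) in the authors' deposited tables. The overlapping exons of 241 and 240 bases were at -0.155 and -0.124 in RS3 and at -0.009 and -0.018 in RS2 in the authors' deposited tables. Exons of 72 and 130 bases were listed in RS3 alone, at -0.228 and -0.199, and the 66-base exon was at -0.002 in both in the authors' deposited tables.

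Such runs were counted over the genes of the RS3 table. Of 2489 genes with at least 5 listed exons there, 7 (0.281%) had 6 or more exons lower by at least 0.1 in the lowest-p row, MAPK9 among them, and 104 (4.18%) had all exons below 0. Genes with exactly 5 listed exons could not reach 6, so 0.281% understates the share among genes that could. The limit of 6 equals the count of MAPK9 itself. MAPK9 was singled out after its values were seen, its exons share reads and transcripts, and each of its RS3 FDR values was 0.111 or more in the authors' deposited tables.

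The other JNK genes had large listed values and no call. MAPK8 (JNK1) had 3 exons. Its 69-base exon was at 0.107 and 0.193 in RS2 (FDR 1) and at -0.195 (p = 0.0274, FDR 0.496) in RS3 in the authors' deposited tables, and its 194-base exon, annotated in a UTR, was at -0.043 and 0.273. The 171-base exon was listed in RS2 alone at -0.671 (FDR 1) in the authors' deposited tables. MAPK10 (JNK3), known mainly from neurons, had 3 exons in RS2 alone, at -1, -0.232 and 0.436, each with an FDR of 1 in the authors' deposited tables.

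MAPK3 (ERK1), a kinase at the end of the ERK branch, had small listed differences. It had 5 listed exons, all between 0.001 and 0.025 in both authors' deposited tables. Of the p38 genes, MAPK13 had 2 exons between -0.013 and 0.041, and MAPK11 had 2, of which the 59-base exon was at -0.013 in RS2 and 0.113 (p = 0.0162, FDR 0.372) in RS3 in the authors' deposited tables. MAPK12 had 11 exons; apart from a 90-base exon they lay between -0.061 and 0.086 in the authors' deposited tables.

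The MAPK12 90-base exon (chr22:50687091-50687180) had RS2 rows at -0.044 and -0.536 and an RS3 row at -0.366, each with an FDR of 1 in the authors' deposited tables. The same exon is also listed under the neighbouring gene HDAC10, in the authors' deposited tables at -0.023 in RS2 and -0.020 in RS3, so reads there cannot be assigned to MAPK12 with certainty. In all, 4 listed exons of MAPK12 overlap listed exons of HDAC10. The MAPK12 exons of 85, 68, 107, 90, 60, 352 and 177 bases are in no GENCODE coding transcript of MAPK12. HDAC10 has a called exon in both of the authors' deposited tables, at 0.347 and 0.309, but that 97-base exon is not listed under MAPK12.

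Among ERK5 and the atypical MAP kinases, MAPK7 (ERK5) had 5 listed exons, none beyond -0.008 or 0.051 in the authors' deposited tables. Its 18-base microexon was at 0.027 in RS2 and 0.051 (p = 0.0177, FDR 0.388) in RS3 in the authors' deposited tables. MAPK6, MAPK4 and MAPK15 had 2, 1 and 1 exons. A 235-base exon of MAPK6 stood at -1 in RS2 alone (p = 0.0631, FDR 1), MAPK4 at 0.2 and 0.156, and MAPK15 at 0.500 and 0.509, each with an FDR of 1 in the authors' deposited tables.

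The symbol rule also took in 4 protein genes outside the kinase tiers. MAPK8IP3 (JIP3), a JNK scaffold, had 8 exons, and its 126-base exon was at -0.032 in RS2 (FDR 1) and -0.140 (p = 0.00337, FDR 0.139) in RS3 in the authors' deposited tables; no GENCODE coding transcript holds that exon. MAPKAP1 (SIN1), a subunit of mTOR complex 2, had 11 exons. Its 177-base exon was at -0.013 in RS2 and -0.025 (p = 0.00984, FDR 0.277) in RS3, and its 93-base exon at -0.121 and -0.156, both with an FDR of 1 in the authors' deposited tables. MAPK1IP1L had 2 exons between -0.019 and 0.007 in the authors' deposited tables. MAP3K7CL, named for its likeness to the end of MAP3K7, had 5 exons between -0.298 and 0.539, the lowest FDR being 0.709 in the authors' deposited tables.

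The antisense RNA genes MAP3K14-AS1 and MAPKAPK5-AS1 had 2 listed exons each. MAP3K14-AS1 had an 81-base exon at 0.365 in both authors' deposited tables and a 269-base exon at -0.498 in RS3 alone (FDR 1). MAPKAPK5-AS1 had a 144-base exon with RS3 rows at 0.517 (p = 0.0903, FDR 0.818) and 0.124, and RS2 rows at -0.048 and -0.065 in the authors' deposited tables. The counting is not stated to use strand, so reads of these genes and their partners cannot be told apart with certainty. The called MAPKAPK5 exon overlaps no exon listed under another gene.

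The libraries were then set side by side over the 101 members with 1 row in each table. For 25 of them (24.8%, against 16.6% of all such exons) the 2 differences were equal to 3 decimals. This includes the values of 1 for MAP3K5, 0.830 for MAP4K3, 0.365 for MAP3K14-AS1 and -0.109 for the 76-base exon of MAPKAPK5 in the authors' deposited tables. The RS3 and RS2 differences were at least 0.1 apart at 13 of the 101 (12.9%, against 15.6% of all), with RS3 higher at 6 and lower at 7. The largest gaps were -0.468 at a 157-base exon of MAP3K7CL, 0.316 at the 194-base exon of MAPK8 and -0.248 at the called exon of MAPKAPK5. The median gap was 0 for members and for all exons. These gaps have no test, since 1 library stands on each side. The inclusion level in the comparator differed between the tables for many exons, so a gap need not equal the inclusion in RS3 minus that in RS2.

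**Figure D4:**
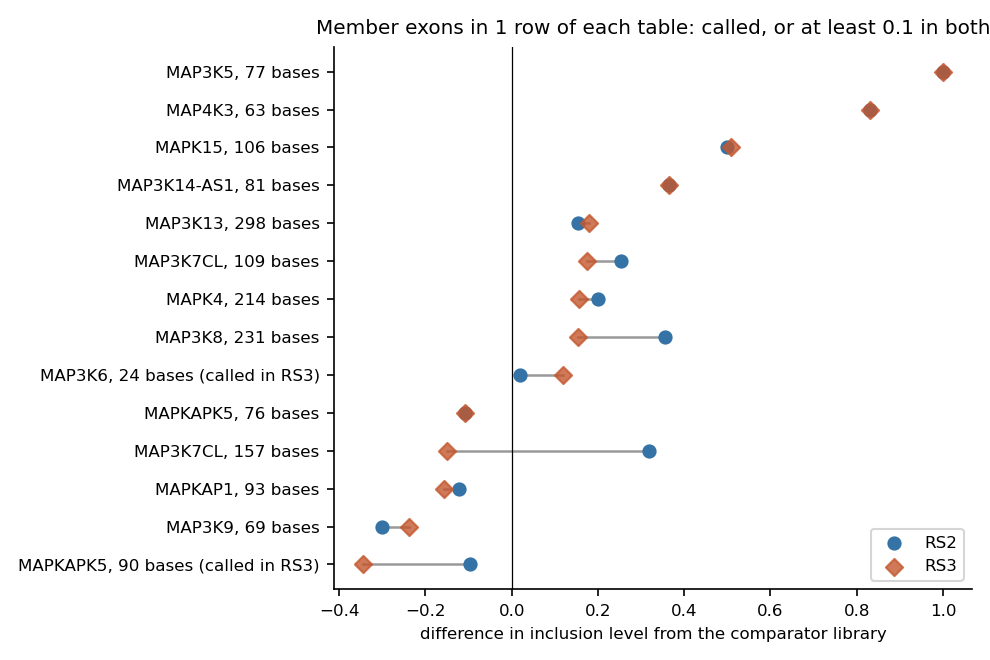
Difference in inclusion level from the comparator library (horizontal axis) in RS2 (circles) and RS3 (diamonds) for the 14 member exons in 1 row of each table that were called in RS3 or differed by at least 0.1 in both. Grey lines join the libraries; the MAP3K7CL exon of 157 bases alone has its points on opposite sides of 0, at 0.318 and -0.150.

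Of these 101 exons, 12 differed from the comparator by at least 0.1 in both tables, 11 of them the same way and 1 in opposite ways. Both tables share the comparator, so a common direction is no independent support. Values not yet given are 0.253 in RS2 and 0.175 in RS3 for the 109-base exon of MAP3K7CL, each with an FDR of 1 in the authors' deposited tables.

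Member exons were like other exons in length. Their median length was 117 bases in both tables, against 119 in RS2 and 120 in RS3 for all exons. Lengths that are a multiple of 3 made up 45.8% of members in RS2 (66 of 144) and 45.4% in RS3 (69 of 152), against 41.3% and 41.4%. Among exons with an unadjusted p under 0.05, 14 of 17 members in RS3 (82.4%) and 6 of 6 in RS2 have such a length, against 45.6% and 45.8% of all such exons of the authors' deposited tables. In RS3, 5 of the 14 belong to MAP4K4, where 10 of 11 exons have such a length, and in RS2 3 of the 6 do, so these exons are not independent of each other. These are counts of length alone: the MAPK9 exon of 93 bases, counted in both tables, lies in a UTR in GENCODE, and the MAPK8IP3 exon of 126 bases, counted in RS3, is in no coding transcript there.

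Other genes of the pathway, under other symbols, had few calls. Of 106 such genes, 83 had listed exons in RS2 and 1 of them (1.2%) was called, against 0.238% of all genes; in RS3 it was 3 of 84 (3.57%), against 3.05%. The RS2 gene was FGFR1, a growth factor receptor at the head of the ERK branch. Its 267-base exon had 1 called row in each table, with lower inclusion. The authors' deposited tables give that row a difference of -0.128 in RS2 (FDR 1.07e-08) and of -0.196 in RS3 (FDR listed as 0). The exon had 3 rows in each table, and the others were not called. In RS3, PAK4, a kinase controlled by the GTPase CDC42, fell by 0.117 at a 459-base exon (FDR 0.000121) and fell by 0.152 at a 189-base form of it (FDR 0.000126) in the authors' deposited tables. The RS2 values of these PAK4 exons were -0.049 (FDR 0.276) and -0.090 (FDR 0.31) in the authors' deposited tables. MINK1, a close relative of MAP4K4, rose by 0.115 at a 111-base exon in RS3 (FDR 0.0267) and was at 0.013 in RS2 (FDR 1) in the authors' deposited tables.

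By role, the RS3 calls were 1 of 11 listed receptors and adaptors and 1 of 6 further MAP3K and MAP4K relatives, besides PAK4. No call was listed in RS3 among 11 RAS proteins and their regulators, 3 RAF and KSR kinases, 6 partners of TAK1, 7 scaffolds, 13 phosphatases, 7 effector kinases of the RSK, MSK and MNK families or 14 transcription factors. The median difference over all exons of these lists was 0.001 in RS2 and -0.001 in RS3. Among the cell type markers, FN1, a fibroblast matrix gene, had 1 called exon in each table, and MAP2, a neuronal gene, had 2 in RS3; their part in the results above was not tested.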

How the data were processed

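RNA was taken from 3 BJ fibroblast libraries, 1 per siRNA group, on day 8 of reprogramming; per the labels' protocols, mRNA was selected and TruSeq libraries were made. The submitters' processing notes name STAR, FastQC and the build hg19, without versions; no source used here names the program that called the events. The authors deposited 2 tables that give each event a p-value, its FDR and the difference in inclusion level. The 4 columns of inclusion level per library entered no result, since no label ties them to a sample. They were looked at to settle the sign: the difference is the first level minus the second, and the second was the one more often equal in both tables, so it was read as the comparator. It was not equal for many exons, so differences between tables do not fully cancel it. Read depth is unknown, and no replicate exists, so no test was added.

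Exons were defined by gene, strand, start and end; the row with the smallest p-value stood for an exon in several rows (24 members), and any called row made its exon a called one. A Benjamini-Hochberg adjustment moved 0 rows across the FDR limit. Counting was tested on simulated data. GENCODE 29 exons were matched by gene, strand and length, with spacing between exons compared within each build: 139 of 172 members matched. All 45 identifiers were in the name table. Python 3.11.15 and pandas 2.3.3 were used. The named exons were every called exon, the 5 largest differences per table and direction, and exons at least 0.1 in both tables; others were added after their values were seen. The values of 1 member gene and the counts of 1 pathway list are not reported here. The members and lists were chosen with earlier results of these data known.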

Additional observations from a re-analysis of the deposited data

Results flagged for a closer look

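The 157-base exon of MAP3K7CL on chromosome 21 (30452873 to 30453029) stood on opposite sides of the comparator in the 2 libraries, at 0.318 in RS2 (p = 0.241, FDR 1) and -0.150 in RS3 (p = 0.342, FDR 1) in the authors' deposited tables. The RS3 difference minus the RS2 difference was -0.468. The gap was not tested, since each library stands alone, and GENCODE 29 places the exon in a UTR of this gene.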

How the results depend on the processing

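Of 36 alternative values, 31 moved by at most 1.5 times (counts) or by less than 0.01 (medians). With a minimum difference of 0.2, member calls in RS3 went from 2 to 1, members with a difference of at least that size in RS3 from 38 to 17, and genes called in the other pathway lists from 1 to 0 in RS2 and from 3 to 0 in RS3. With an FDR under 0.01, member calls in RS3 went from 2 to 1. Member calls in RS2 stayed at 0 under all 8 alternatives tried, which are among the 31 above. The stricter ones, and those on fewer rows or genes, could only give 0. The looser limits, a minimum difference of 0.05 and an FDR under 0.1, could have added calls and gave 0. In RS3, 2 calls were counted with the lowest-p row alone, with single-row exons alone, and without the genes that are not kinases. That outcome was fixed in advance, since both called exons have a single row and lie in kinase genes. No paired analysis was possible because each group has 1 library and the tables name no sample. Leaving out a library was not possible for the same reason. Depth is unknown, so differences of 1 or -1 with an FDR of 1 cannot be given an interval.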
